A study of Mus musculus with 2 samples.

Results

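The cytoplasmic ribosomal protein genes are the 80 genes, of 31053 rows in both count matrices, whose symbols begin with Rpl or Rps and go on with a subunit name alone, so that kinases and annotated pseudogenes are left out. The rule used no measured value. It misses ribosomal protein genes with other symbols or suffixes, such as Rps3a1 and Fau, which are counted among the other gene lists, and Rps4l is not a row of the files. The data were droplet single-cell counts of unique molecular identifiers (UMIs, each standing for 1 captured transcript) from cells sorted as Cd11b and Cd45 double positive out of the hypothalamic and thalamic region of CD1 mouse embryos at E15.5. The control library pooled 10 embryos of 1 unstressed wild-type dam. The stressed library pooled 5 embryos of 1 CD1 dam that was kept at 4 °C for 30 min per day over 5 days from E11.5. Each condition is therefore 1 library from 1 litter, and condition, dam, litter, number of embryos and sort run cannot be told apart. No test, p-value or replicate error is given between the libraries, and their intervals cover counting error only.

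A ribosome is built from a small subunit, which decodes the messenger RNA, and a large subunit, which joins amino acids and lets the growing chain out through an exit tunnel. Nearly every ribosomal protein is present in 1 copy per ribosome, whereas the acidic proteins of the stalk, which binds elongation factors, are present in several. Most of these messages begin with a 5′ terminal oligopyrimidine (5′ TOP) tract, a C at the first transcribed base followed by a run of C and T, through which mTOR signalling and LARP1 control their translation. In brain macrophages as in other cells, the messages are abundant, short and stable, so they fill much of a single-cell library.

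The start sites of 60 members were found in the RefSeq promoter table (GRCm38.p6), and 13 of them (21.7%) had a C at an annotated start followed by at least 4 more C or T on the coding strand, against 2.83% of 19347 other genes of the files. A run of at least 8 C or T within 30 bases either side of a start was found for 34 of the 60 members (56.7%) and for 25.6% of the other genes. The sequences shown run from 20 bases before to 20 bases after the annotated start, 5′ to 3′, with the C or T run that begins at a C start in capitals. They were chosen after the values were seen, as 3 members with the tract and a large difference between the libraries, 1 with the tract and a small one, 2 with a large difference and no tract at the annotated start, and 2 low members with none.
Rps21 (chr2:180257359-180257398, plus strand): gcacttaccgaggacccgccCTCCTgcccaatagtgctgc
Rps27 (chr3:90213629-90213668, minus strand): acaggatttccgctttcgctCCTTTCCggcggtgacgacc
Rps15a (chr7:118116128-118116167, minus strand): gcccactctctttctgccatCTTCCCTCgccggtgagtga
Rps6 (chr4:86857348-86857387, minus strand): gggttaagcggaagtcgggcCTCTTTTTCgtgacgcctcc
Rps26 (chr10:128626487-128626526, minus strand): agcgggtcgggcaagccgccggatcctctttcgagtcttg
Rps12 (chr10:23787190-23787229, minus strand): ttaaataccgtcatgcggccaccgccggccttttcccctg
Rpl41 (chr10:128549149-128549188, minus strand): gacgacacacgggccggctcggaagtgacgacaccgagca
Rpl27 (chr11:101442225-101442264, plus strand): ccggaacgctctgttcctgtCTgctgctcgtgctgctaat
A start that lies a few bases off in the annotation moves the tract out of the searched position, so a member without it is only one without these letters at that base. The capitals of Rpl27 are 2 bases long and do not meet the definition.

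The control and stressed files held 1156 and 1467 barcodes with 2833015 and 6582188 UMIs, and the medians were 1947.5 and 3767 UMIs per barcode. The 80 members took 18.1% of all control UMIs and 21.1% of all stressed UMIs. Filters of 500 genes and 10% mitochondrial UMIs left 1068 and 1407 cells. Cells were gated by markers, with no ribosomal protein gene among them: 623 and 1099 microglia-like, 215 and 158 neural-like, 78 and 26 border-associated macrophage-like and 17 and 15 monocyte or granulocyte-like cells. The microglia-like cells had UMIs of all 11 microglial markers, which summed to 6185 and 6403 UMIs per 1000000 UMIs of the class (CPM), and of 5 and 6 of 13 monocyte and granulocyte markers at 16.5 and 16.7 CPM. The neural-like cells went against the sort: their 17 neural markers summed to 17475 and 18332 CPM, and their microglial markers to 113 and 142 CPM. The libraries shared 13 barcodes, and in each pair 1 library held a deep cell (2577 to 28384 UMIs) and the other a shallow one (502 to 735 UMIs). Without these barcodes the median log2 ratio of the members in microglia-like cells stayed at 0.26. Empty droplets were not analysed here, so the part that free RNA has in the counts was not tested.

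In microglia-like cells the members made up 18.2% of UMIs in the control library (95% exact binomial interval 18.1 to 18.3, 623 cells) and 21.6% in the stressed library (21.6 to 21.7, 1099 cells). The share was higher in the stressed library in every named class. It was 15.3% and 18.6% in neural-like cells, 21.4% and 24.3% in border-associated macrophage-like cells, and 22.3% and 27.3% in the few monocyte or granulocyte-like cells. Neural-like cells thus had the lowest share of these 4 classes in both libraries. Thinned to 1000 UMIs per cell, control monocyte or granulocyte-like cells had 21.7% and border-associated macrophage-like cells 21.9%, so the order of these 2 classes was not the same in both libraries. The monocyte markers that defined the last class summed to 60440 CPM in the control and 10834 CPM in the stressed library, so its cells differ in make-up. Haemoglobin-high cells, 5 and 14 in number, had 9.54% and 10.99%.

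**Figure D1:**
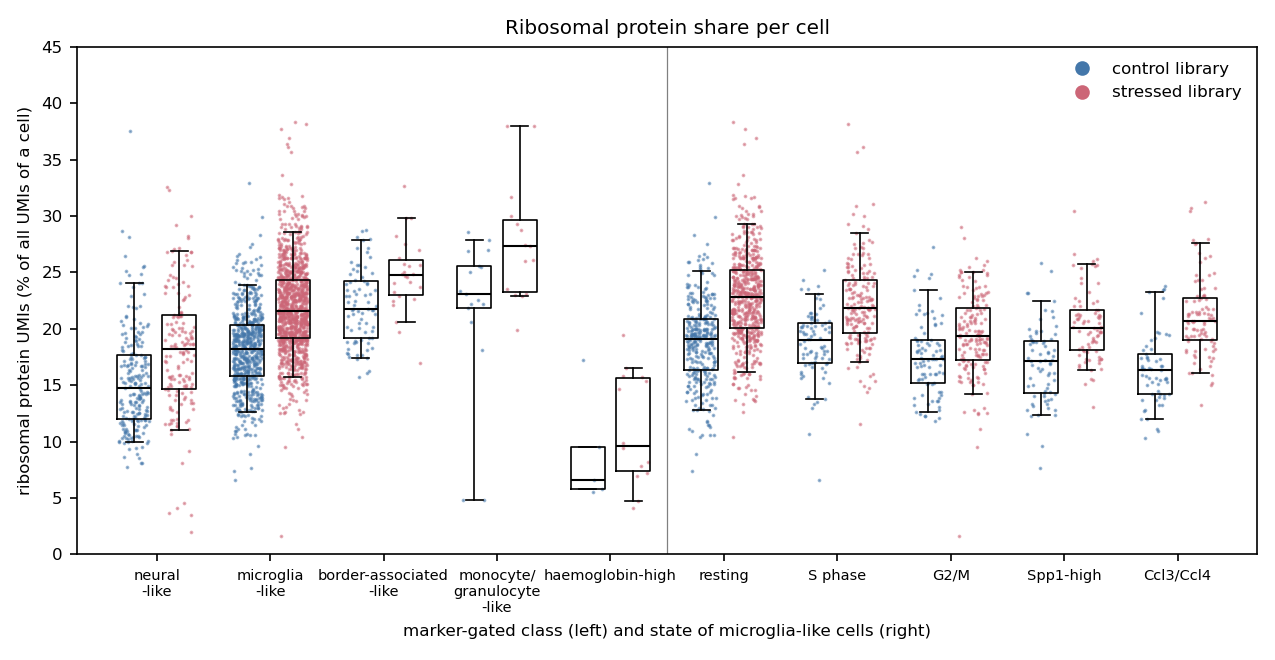
Ribosomal protein UMIs as a percent of all UMIs of a cell, for the marker-gated classes (left of the line) and the states of microglia-like cells (right), in the control (blue) and stressed (red) library; each point is a cell, boxes show the quartiles and median, and whiskers the 5th and 95th percentiles. Medians of microglia-like cells were 18.2% and 21.6%, and the distributions of the libraries overlap in every class.

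Cells of 1 class varied more than counting gives. Thinned to 1000 UMIs each, microglia-like cells had a mean share of 18.2% with an SD over cells of 3.73 percentage points in the control and of 21.9% with an SD of 4.10 in the stressed library. Drawing 1000 UMIs at a fixed share would give SDs of 1.22 and 1.31 points. The thinned means of neural-like cells were 15.1% and 18.5%. Thinning left out 24 control and 0 stressed microglia-like cells, and 31 and 8 neural-like cells.

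The share was higher in the stressed library among cells of like depth too. Among control microglia-like cells the share was 17.8% under 1500 UMIs, 18.2% from 1500, 18.4% from 2500, 18.6% from 4000 and 17.2% from 6000 UMIs upward. In the same bins of the stressed library it was 21.8%, 22.2%, 22.3%, 21.7% and 21.1%. Every stressed bin was above every control bin, and in both libraries the deepest cells had the lowest share. The median mitochondrial share of microglia-like cells moved the same way, from 2.33% in the control to 3.57% in the stressed library, and its part in the result was not tested. With mitochondrial UMIs taken out of the total, the members had 18.7% and 22.4%.

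**Figure D2:**
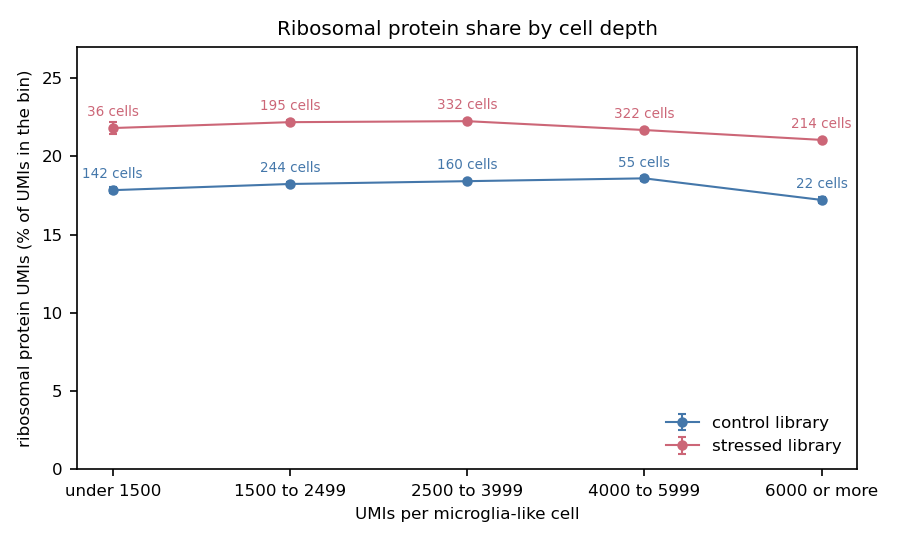
Share of ribosomal protein UMIs in microglia-like cells (vertical axis, percent) in 5 bins of UMIs per cell (horizontal axis), with exact 95% counting intervals and the number of cells in each bin. The stressed library lies between 21.1% and 22.3% and the control library between 17.2% and 18.6%.

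Of the 80 members, 77 reached 50 CPM in microglia-like cells of a library. The other 3 are copies known mainly from other tissues: Rpl3l, which takes the place of Rpl3 in striated muscle, had 1 control and 2 stressed UMIs, Rpl10l, a copy of Rpl10 expressed in testis, also had 1 and 2, and Rpl39l, the related copy of Rpl39, had 5 and 37. Counts of 3′ ends do not grow with transcript length, but reads that a member shares with near copies may be lost or split, so the order of levels is that of the counts as deposited. By the mean of both libraries, the highest level was that of Rpl41, the shortest ribosomal protein with 25 amino acids, at 12651 CPM in the control and 11465 CPM in the stressed library. Rps29, a zinc-binding protein of the small subunit, followed at 7047 and 11263 CPM, then Rps28 at 7800.5 and 8174 CPM, Rpl39, which lines the exit tunnel, at 5311 and 6968.5 CPM, and Rps24 at 5938 and 6200 CPM. In the control library alone, Rps28 was above Rps29, and both Rps24 and Rpl37, at 5334 CPM, were above Rpl39. The lowest were Rpl13a at 247 and 270 CPM, Rpl23a at 325 and 297, Rpl4 at 390 and 449, Rpl5, which carries 5S ribosomal RNA into the large subunit, at 427 and 452, and Rps6, the small subunit protein phosphorylated by S6 kinase, at 495 and 548 CPM. Counted levels of the expressed members thus spanned 247 to 12651 CPM in the control library. A UMI of Rpl41 was found in 100.0% of control microglia-like cells thinned to 1000 UMIs, and one of Rpl13a in 21.9%.

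Stressed against control, the members of microglia-like cells had a median log2 ratio of 0.26, with quartiles of 0.09 and 0.45 and a range from -0.14 to 0.86. Their summed share differed by 0.25 on the log2 scale (counting interval 0.24 to 0.25). At least 1.5 times higher in the stressed library were 9 of the 77 members, beside 1.51% of all 2712 genes that reached 50 CPM, and 0 were 1.5 times lower, beside 3.69% of all genes. The median of all these genes was -0.07. In neural-like cells the members' median was 0.28, with 9 of 77 at least 1.5 times higher and 0 lower, beside 6.33% and 9.23% of all genes. In border-associated macrophage-like cells, with 26 cells in the stressed library, the median was 0.23. These ratios were scaled by class totals. Scaled with edgeR's TMM factors, the median in microglia-like cells was 0.38 and 15 members passed 1.5 times, with the median of all genes at 0.06. The share of all genes that passed under TMM is not given here.

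**Figure D3:**
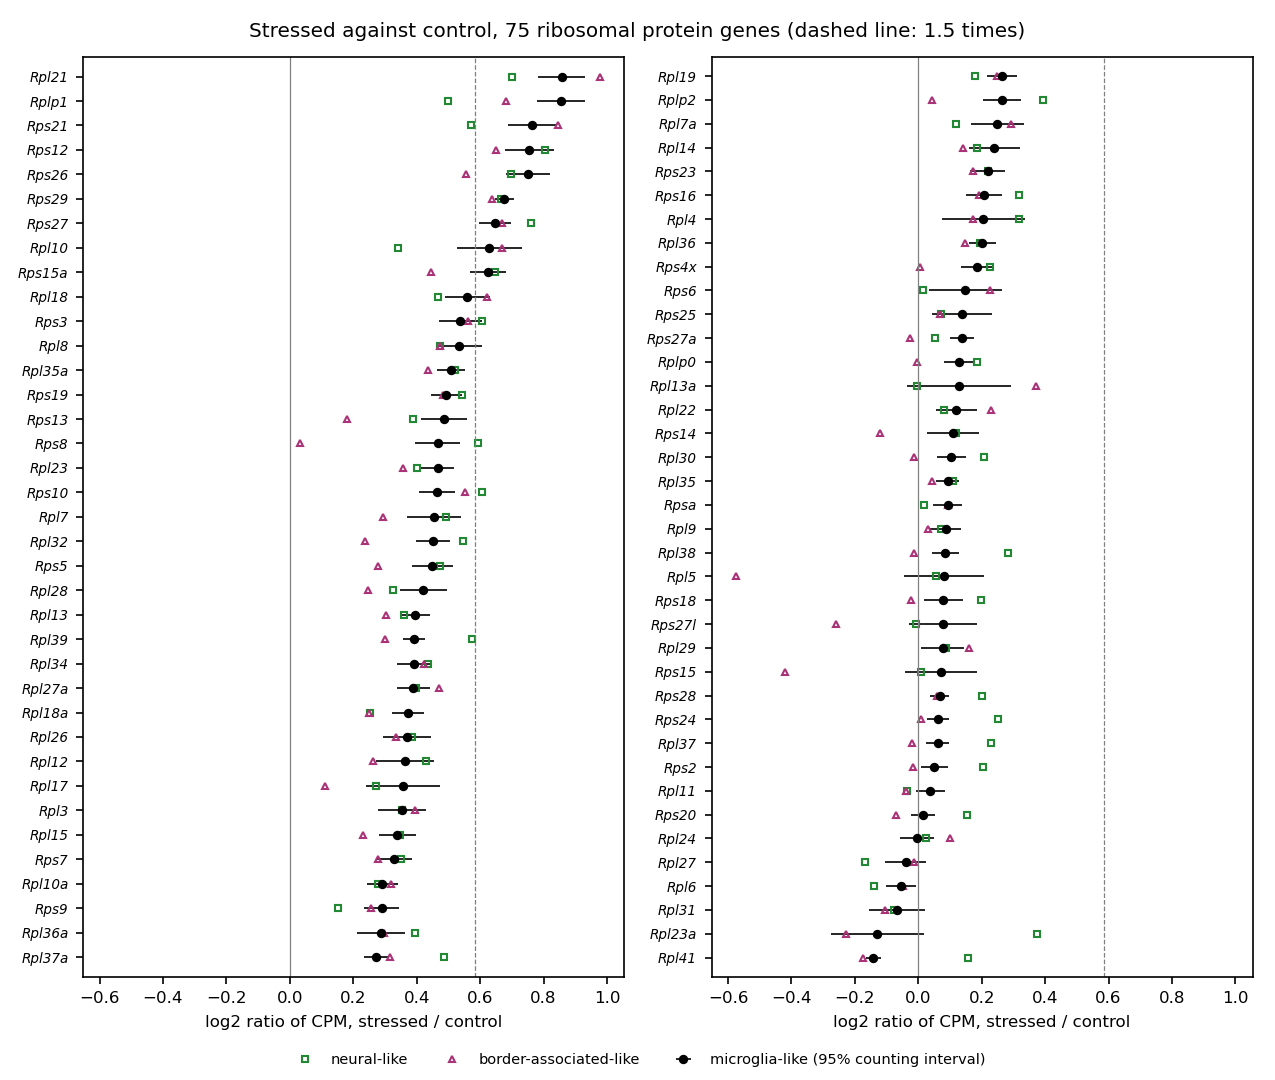
Log2 ratio of CPM, stressed over control (horizontal axis), for 75 of the 77 members in order of their ratio in microglia-like cells (black, with 95% counting intervals), with neural-like (green squares) and border-associated macrophage-like cells (purple triangles); the dashed line marks 1.5 times. Rpl21 and Rplp1 lead in microglia-like cells at 0.86 and 0.85 and Rpl41 is lowest at -0.14.

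The small subunit proteins held most of the large ratios. Rps21 was at 1060 CPM in the control and 1799 CPM in the stressed library (log2 ratio 0.76, counting interval 0.69 to 0.84), and at 0.57 in neural-like and 0.85 in border-associated macrophage-like cells. Rps12 was at 1053 and 1777 CPM (0.76, 0.68 to 0.83), with 0.81 in neural-like cells. Rps26, which lies at the exit of the messenger RNA channel, was at 1287 and 2166 CPM (0.75, 0.68 to 0.82). The zinc-binding proteins Rps29 and Rps27 had ratios of 0.68 and 0.65, and Rps15a had 0.63. Other small subunit genes differed little between the libraries: Rps20 was at 4963 and 5015 CPM (0.02), with a counting interval that included 0. The median over the 31 small subunit genes was 0.21, with 6 at least 1.5 times higher, and over the 46 large subunit genes it was 0.27, with 3.

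Among large subunit genes, Rpl21 had the highest ratio of all members, from 1096 CPM in the control to 1986 CPM in the stressed library (0.86, counting interval 0.78 to 0.93). Rpl10, which sits beside the catalytic centre, went from 605 to 936 CPM (0.63, 0.53 to 0.73) in microglia-like cells, with 0.34 in neural-like cells. The 3 stalk proteins differed from each other. Rplp1 was at 1054.5 and 1906 CPM (0.85), its partner Rplp2 at 1799 and 2159 CPM (0.26), and Rplp0, which anchors both to the subunit, at 3282 and 3585 CPM (0.13). The counting intervals of the 3 ratios, 0.78 to 0.93, 0.20 to 0.32 and 0.08 to 0.17, did not overlap. Rplp1 had the highest ratio of the 3 in neural-like cells too, at 0.50 beside 0.39 and 0.18.

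Below 0 were 6 members: Rpl41 at -0.14 (counting interval -0.17 to -0.12), Rpl23a at -0.13 (-0.28 to 0.02), Rpl31 at -0.07, Rpl6 at -0.06, Rpl27 at -0.04 and Rpl24 at -0.005. The intervals of Rpl31, Rpl27 and Rpl24 included 0 as well. With TMM factors Rpl41 was at -0.03 and Rpl23a at -0.02, and the other 4 were above 0, from 0.05 to 0.11. The direction of Rpl31, Rpl6, Rpl27 and Rpl24 thus turned with the scaling. By state, Rpl41 was at 0.02 in Ccl3/Ccl4 cells and below 0 in the other 4 states. Rpl41 was above 0 in neural-like cells, at 0.16 (0.11 to 0.20). Rpsa, a small subunit protein also known as the laminin receptor, was at 3229 and 3442 CPM (0.09).

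Ratios of like size were found in cells of equal depth and in female cells. Restricted to cells of 2500 to 4000 UMIs, a setting chosen after the data were seen, the members' median was 0.30 and 11 were at least 1.5 times higher. Rpl21 was then at 0.95, Rps27 at 0.88, Rplp1 at 0.80 and Rpl41 at -0.21. Cells with Xist and no Y-linked transcript were 207 of the 623 control and 1031 of the 1099 stressed microglia-like cells. The libraries thus also differ in sex make-up as read by these transcripts. Over the cells with Xist and no Y-linked transcript alone, the median was 0.28, with 10 members at least 1.5 times higher. The shares of all genes that passed in these subsets are not given here, so the counts of 11 and 10 lack a background. Such shares can be larger with fewer cells. In Spp1-high cells 247 of 2853 genes were at least 1.5 times higher, beside 41 of 2712 in all microglia-like cells. The 4 X-linked members, Rps4x, Rpl10, Rpl36a and Rpl39, had ratios of 0.18, 0.63, 0.29 and 0.39, and of 0.17, 0.67, 0.28 and 0.33 among the female cells. Median ratios by state were 0.29 in resting, 0.28 in S phase, 0.17 in G2/M, 0.24 in Spp1-high and 0.37 in Ccl3/Ccl4 microglia-like cells. Rpl21 ranged over these states from 0.74 to 0.90, Rplp1 from 0.74 to 1.22 and Rps12 from 0.63 to 0.83.

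The 13 members with the 5′ TOP tract at an annotated start had a median ratio of 0.34, from 0.08 to 0.76, and the 44 expressed members whose windows lacked it a median of 0.21, from -0.14 to 0.76. The ranges overlap over most of their length. Of the members whose starts are printed, Rps21 and Rps27 with the tract were at 0.76 and 0.65, whereas Rps6 with a tract of 9 bases was at 0.15. Rps26 and Rps12, with no tract at the annotated start, were at 0.75 and 0.76. Members of up to 151 amino acids had a median of 0.26, as did longer ones. At least 1.5 times higher were 7 of the 39 shorter and 2 of the 38 longer members, a difference that was not tested.

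Ribosomal protein genes have many processed copies in the genome, and reads of a member and its copy can be split by the counting. A stretch of at least 75 coding bases at 95% identity or more was found elsewhere in the annotation for 76 of the 80 members, and among the counted rows for 18. Those 18 had a median ratio of 0.22 and the other 59 expressed members one of 0.27. Single copies went far from their parents. Gm10260, a copy of Rps18, was at 135 and 375 CPM (log2 ratio 1.47, counting interval 1.27 to 1.68), beside 0.08 for Rps18. Rpl27-ps3 was at 67.3 and 167 CPM (1.31), beside -0.04 for Rpl27. Gm2000, a copy of Rpl35, went the other way, from 360 to 192 CPM (-0.90), beside 0.09 for Rpl35. Gm10260 had 213 control and 1842 stressed UMIs beside 2766 and 9104 of Rps18. The part that the split of reads between the pair has in the ratio of Rps18 was not tested. BC004004, the counted copy of the leading member Rpl21, was at 65.4 and 62.7 CPM, a small part of the parent's level in both libraries. Rpl21 had 63 annotated near copies, of which only 1 was a counted row, and Rps12 had 22, also with 1 counted. Reads lost to uncounted copies do not show in these values, and their part in the ratios was not tested.

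Between classes and states a test was possible, because each library gives a sum for each. The sums were fitted with edgeR's quasi-likelihood test with the library as a term, and p-values were adjusted by the Benjamini-Hochberg method over all genes. Each class or state has 2 sums, and all classes or all states were fitted together and share the estimate of spread. With so few sums, edgeR also draws the spread of each gene toward that of all genes. The SEs were worked out from the fold change and the F statistic of the test. SEs and p-values are therefore not those of a gene's own spread alone. The p-values thus rest on how alike the 2 libraries are over the whole fit, not in the named contrast alone. They do not measure the spread over embryos. All 77 members were tested in every contrast.

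Neural-like cells had lower ribosomal protein counts than microglia-like cells. At an adjusted p under 0.05, 73 of 77 members were lower and 0 higher (74 lower and 0 higher at an unadjusted p under 0.05, and 69 and 0 with DESeq2), beside 31.2% of 7715 genes lower and 31.6% higher. Of the 73, 50 were called after thinning to 1000 UMIs, where 2 turned sign, 58 with classes taken from clusters and 48 without the library term. The median fitted log2 fold change of the members was -0.57, with that of all genes at 0.00. Scaling matters here: on the scale of class totals the members' medians were -0.24 for the control and -0.25 for the stressed library, with those of all genes at 0.33 and 0.36. On that scale 65 of the 73 called members were lower in both libraries, and 4 of them, among which were Rpl31, Rpl29 and Rpl36, were higher in both.

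Rps12 and Rpl12 stood lowest on either scale. Rpl12, part of the base of the stalk, was at 309 CPM in neural-like and 769 CPM in microglia-like cells of the control library, and at 416 and 989 CPM in the stressed library (log2 fold change -1.62 ± 0.13 SE, edgeR adjusted p = 9.85e-33). Rps12 was at 430 and 1053 CPM in the control and at 752 and 1777 CPM in the stressed library (-1.60 ± 0.12, edgeR adjusted p = 1.04e-36). On the log2 scale, the distance between the classes was larger than that between the libraries for both genes. Rps29 followed at -1.14, Rpl10a at -1.10, Rplp1 at -0.96 and Rpl5 at -0.95. Not called were Rpl24, Rpl38, Rpl41 and Rps15. On the scale of class totals each of these was higher in neural-like cells in both libraries. Rpl41 was at 13072 CPM in neural-like and 12651 CPM in microglia-like cells of the control library. In the stressed library Rpl41 was at 14566 and 11465 CPM. Mitochondrially encoded genes were also lower in neural-like cells, in 13 of 13, and their part in the result was not tested.

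Border-associated macrophage-like cells lay on the other side of microglia-like cells. There 25 of 77 members were higher and 0 lower (44 and 0 at an unadjusted p under 0.05, and 44 and 0 with DESeq2), beside 6.35% and 5.65% of all genes, with a median of 0.25. Rpsa led, at 4883 CPM beside 3229 CPM in microglia-like cells of the control and 5211 beside 3442 CPM in the stressed library (0.68 ± 0.11 SE, edgeR adjusted p = 2.88e-08). Rpl10 was at 0.61, Rps4x at 0.48, Rpl37a at 0.46 and Rpl36 at 0.43. All 25 were higher in both libraries on the scale of class totals. The count rests on the settings: 13 were called with likely doublets removed, 5 after thinning to 1000 UMIs, 3 with classes taken from clusters and 1 without the library term.

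**Figure D4:**
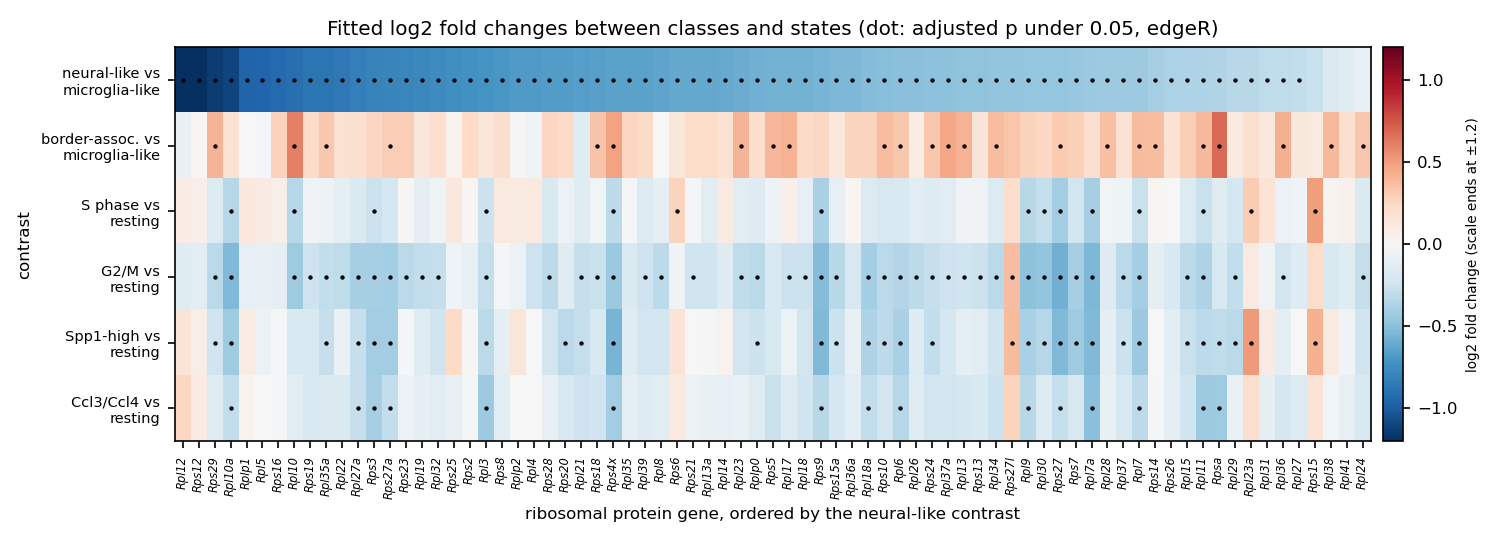
Fitted log2 fold changes (colour) of 75 of the 77 members (columns, ordered by the neural-like contrast) in 6 contrasts (rows); dots mark an adjusted p under 0.05 (edgeR). The neural-like row is blue throughout, with Rpl12 and Rps12 at -1.62 and -1.60 beyond the end of the scale, and Rps15, Rps27l and Rpl23a are red in several states where most members are blue.

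Within microglia-like cells the share was lower in each gated state than in resting cells in both libraries. The share of resting cells was 19.1% (control) and 22.8% (stressed), S phase cells 18.6% and 22.0%, and G2/M cells 17.4% and 19.6%. Spp1-high cells, gated on the sum of Spp1, Gpnmb, Csf1, Lgals3 and Fabp5, had 17.2% and 20.3%. Cells high in the sum of the chemokines Ccl3 and Ccl4 had 16.6% and 21.3%. Depth differs between the states, with medians of 1792.5 UMIs in resting and 3129 UMIs in Spp1-high control cells. Between 2500 and 4000 UMIs, G2/M cells still had 16.6% and 19.9% and resting cells 19.6% and 23.0%, whereas S phase cells had 19.96% and 22.1%.

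In G2/M, 48 of 77 members were lower than in resting cells and 2 were higher, beside 8.78% and 10.5% of 6318 genes, with a median of -0.27. Of the 13 mitochondrially encoded genes 10 were lower there too, with a median of -0.29, and 5 were lower in S phase, 3 in Spp1-high and 2 in Ccl3/Ccl4 cells. Their part in the result was not tested. Rps27 was lowest, at 2132 beside 2835 CPM in the control and 3017 beside 4375 CPM in the stressed library (-0.58 ± 0.08 SE, edgeR adjusted p = 1.38e-07). Rpl7a was at -0.54, Rpl10a at -0.53, Rps9 at -0.52, Rpl9 at -0.49 and Rpl30 at -0.48. Among the 2 higher members was Rps27l, at 720 beside 501 CPM and 713 beside 524.5 CPM (0.37 ± 0.09, edgeR adjusted p = 0.00161). Rps27 and Rps27l encode paralogous proteins, each of 84 amino acids here, and Rps27l is known as a p53 target. Their fold changes had opposite signs in G2/M and in Spp1-high cells, both passed the test, and the difference between them was not tested.

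In S phase 13 members were lower and 4 higher, beside 5.46% and 8.53% of all genes. Among the higher ones were Rps15 (0.50), Rpl23a (0.31) and Rps6 (0.27). The lowest were Rps27 at -0.42, Rpl7a at -0.40, Rps9 at -0.39, Rpl10a at -0.34, Rpl10 at -0.34 and Rpl9 at -0.34. In Spp1-high cells 29 were lower and 4 higher, beside 5.67% and 5.44% of all genes. Rpl23a was at 401 beside 284 CPM in the control and 388 beside 255 CPM in the stressed library (0.51 ± 0.12 SE, edgeR adjusted p = 0.00130), and Rps15 (0.43) and Rps27l (0.38) were higher too. Rps4x was lowest at -0.56, then Rps9, Rps27 and Rpl7a at -0.53, Rpl7 at -0.44 and Rpl10a at -0.43. In Ccl3/Ccl4 cells 15 were lower and 0 higher (35 and 2 at an unadjusted p under 0.05, and 13 and 0 with DESeq2), beside 3.09% and 3.4% of all genes, led by Rpl7a at -0.50, Rpl3 at -0.44, Rpl11 and Rpsa at -0.43, Rps4x at -0.42 and Rps3 at -0.40.

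The higher calls were no larger a share of the members than of all genes in any state. Rps15 and Rpl23a were called higher in S phase and Spp1-high cells, and Rps27l in G2/M and Spp1-high cells. Among the members called lower in all 4 states were Rpl7a, Rps9, Rps27, Rpl9, Rpl10a, Rps4x, Rps3, Rpl3, Rpl11 and Rpl7. Every called member of the 4 states kept the sign of its fold change in each refit, and 47 of the 48 lower in G2/M were lower in both libraries on the scale of class totals. Without the library term 0 members were called in any state. After thinning to 1000 UMIs, 0 members were called higher in Spp1-high cells, 1 in G2/M and 2 in S phase.

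The other lists of cytoplasmic translation genes had medians below that of the members, stressed against control in microglia-like cells, and these differences between lists were not tested. Of the 7 elongation factors 1 was at least 1.5 times higher, Eef1b2, the exchange factor of eEF1A, from 445 to 787 CPM (log2 ratio 0.82), and Eef2 was at -0.35, with a median of 0.15. Of 29 initiation factors 0 passed 1.5 times in either direction, with a median of -0.02 and Eif3f highest at 0.54, then Eif3e at 0.52. The 11 other ribosomal and ribosome-associated proteins had a median of 0.16, with Tpt1 at 0.36. Of 8 expressed ribosome assembly genes, among them Ncl at 0.32 and Nop58 at 0.46, 0 passed, with a median of 0.11. The 50 mitochondrial ribosomal proteins, which serve the ribosome inside mitochondria, had a median of 0.00, with Mrpl33 at 0.49 and Mrpl15 at 0.41. The list of ribosomal protein copies held those with -ps symbols, with Gm8186 and Gm10260 added by name. Its 4 expressed genes had a median of 1.34, with Gm10260 at 1.47 and Gm8186 at 1.37. Counted copies outside that list included Gm10073 at 1.39, Gm3550 at 0.50, Rps27rt at 0.07 and Gm2000 at -0.90. The median is thus that of the list and not of copies in general. Of 13 mitochondrially encoded genes 8 were at least 1.5 times higher, led by mt-Nd2 at 0.86 and mt-Nd5 at 0.85. Beside these lists, 1.51% of all 2712 genes that reached 50 CPM were at least 1.5 times higher and 3.69% lower. Counts of 0 or 1 in such short lists are not read as a difference from all genes.

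Between states, the ribosome assembly genes that were called rose. In S phase, 9 of 25 tested ribosome assembly genes were higher than in resting cells and 0 lower, beside the 8.53% and 5.46% of all genes, with a median of 0.48, and in Spp1-high cells 5 were higher and 0 lower, beside 5.44% and 5.67%, with a median of 0.45, where the ribosomal protein genes had a median of -0.20. In neural-like cells 1 of 22 assembly genes was higher and 11 were lower than in microglia-like cells, beside the 31.6% and 31.2% of all genes. In G2/M 10 of 73 tested mitochondrial ribosomal proteins were higher and 1 lower, beside the 10.5% and 8.78% of all genes, with a median of 0.21.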

How the data were processed

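Cells sorted from 1 pool of embryos per condition were measured with 10x Genomics 3′ libraries of v3 chemistry, per the labels' protocols. The matrices deposited by the authors hold whole UMI counts, not normalised. Cell Ranger 3.0.0, STAR and Seurat 2.4 are named per the submitters' processing notes, with the mouse build GRCm38.p5 (mm10), and which step each served is not given in the sources used here. The members and gene lists were chosen with earlier results of these data known. Cells were placed in a class by at least 3 UMIs of a marker list that made up at least 70% of all marker UMIs, and in a state by at least 3 UMIs of its list and a minimum per 10000 UMIs: 20 for G2/M, 10 for S phase, 15 for Ccl3/Ccl4 and 50 for Spp1-high, in the order G2/M, S phase, Ccl3/Ccl4 and Spp1-high, with the rest called resting. Spp1, Gpnmb, Csf1, Lgals3 and Fabp5 made up the Spp1-high list. Of the gated cells, 101 control and 109 stressed lay near a limit (at most 4 UMIs or under 80%), and 126 and 95 kept cells stayed ungated. Doublets were kept, since Scrublet's own threshold marked 2 and 3 cells, and the alternative removed the highest 3.5% of scores (38 and 50 cells).

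Counts were summed per library and class, and CPM is a sum relative to the class total. Ratios carry exact conditional 95% intervals and shares exact Clopper-Pearson intervals; a sum of 0 was set to 3 counts. Contrasts used edgeR 4.0.16 (glmQLFit and glmQLFTest, TMM, filterByExpr, library as a term) in R 4.3.3 on classes with at least 20 cells in each library, with 0.05 as the limit. The steps were tested on simulated data. Alternatives were DESeq2 1.42.0, other scalings, filters and minimums, thinning, doublet removal, female cells, cells outside S and G2/M, clusters made without ribosomal protein genes (scanpy 1.11.5, igraph 0.11.9, 2000 variable genes, 30 components, 15 neighbours, resolution 0.5), no library term, each library alone, and, added after the data were seen, cells of 2500 to 4000 UMIs and cells without shared barcodes. Members were named by a rule: 16 always (11 members and 5 copies), the 8 highest and 8 lowest ratios, 6 at each end of a contrast, 5 at each end of the levels and 2 per list. Rps15a, the uncalled members of the neural contrast and the copies of members were named after their values were seen. Gene positions and copies come from the GENCODE annotation of GRCm38, in which 30934 of 31053 identifiers and all 80 members were found. Promoter windows are RefSeq's for GRCm38.p6. A few genes that the naming rule takes are not reported here, and the figures leave them out.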

Additional observations from a re-analysis of the deposited data

Results flagged for a closer look

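Rpl41 was lower in the stressed library in microglia-like cells, at -0.14 on the log2 scale (counting interval -0.17 to -0.12), and higher there in neural-like cells, at 0.16 (0.11 to 0.20). The ratios in the 2 classes, both scaled by class totals, have opposite signs and lie 0.30 apart (0.298). With TMM factors the ratio in microglia-like cells was smaller in size, as given above. By state it was 0.02 in Ccl3/Ccl4 cells and below 0 in each of the others. The difference was not tested, because each condition is 1 library.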

How the results depend on the processing

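Stressed against control, the summed share in microglia-like cells, 0.25 on the log2 scale, was 0.267 without mitochondrial and haemoglobin genes, 0.267 as a mean over cells, 0.265 thinned to 1000 UMIs, 0.239 under the stricter cell filter (1000 genes, 5% mitochondrial UMIs), 0.231 with cluster classes, 0.274 outside S and G2/M, and 0.273 in cells of 2500 to 4000 UMIs. The members' median was 0.376 with TMM and 0.374 with DESeq2 factors, with 15 members at least 1.5 times higher under each. A lower fold limit gave 33 members higher and a limit of 2 times gave 0, and with no CPM minimum 2 of 80 were 1.5 times lower. The shares of all genes under these settings are not given beside the counts. With no library term, members called lower numbered 48 in neural-like cells and 0 in S phase, G2/M, Spp1-high and Ccl3/Ccl4 cells, and those called higher 1 in border-associated macrophage-like cells and 0 in S phase, G2/M and Spp1-high cells. Members called higher in border-associated macrophage-like cells numbered 44 with DESeq2, 2 with no filter, 5 thinned, 13 without doublets and 3 with cluster classes. In S phase those called higher numbered 1 with DESeq2, 2 with no filter, 2 thinned and 1 under the stricter cell filter, and those called lower 8 with DESeq2 and 4 thinned. Thinned, 1 was called higher in G2/M and 0 in Spp1-high cells, where the stricter cell filter left 2. Within each library alone, with no test and scaled by class totals, medians were -0.254 to -0.236 in neural-like, 0.156 to 0.193 in border-associated macrophage-like, -0.0166 to -0.00868 in S phase, -0.200 to -0.128 in G2/M, -0.151 to -0.141 in Spp1-high and -0.193 to -0.0839 in Ccl3/Ccl4 cells. The causes were not tested. Under the alternatives, 124 other values of these results stayed within their limits, and of the values of single members 57 moved and 174 did not. The contrast of monocyte or granulocyte-like cells was not run, since neither library held 20 of them, and states were not taken from clusters. No paired analysis was possible between the conditions because each is 1 library; contrasts between classes and states compare sums within a library through the library term. Depth limits single ratios: the median half-width of the members' log2 counting intervals was 0.06.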
